A study of Mus musculus with 2 samples.

Results

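The miR-26 family of the newborn mouse forebrain is made from 3 hairpin loci, Mir26b, Mir26a-2 and Mir26a-1, each inside a gene of the Ctdsp phosphatases. The loci were found by their Ensembl identifiers among the 1973 annotated miRNA rows of the count tables, and all 3 had a row and were detected. They were measured by microRNA sequencing of total RNA from the forebrain of B6NCrl mice at postnatal day 0. There is 1 group of 2 libraries, each from the single forebrain of 1 animal, named pup 3 and pup 1 in the labels. The labels list the same donor for both and state that sex was not collected. The design holds no second condition. The results are therefore levels, their spread over the 2 animals, and differences between these libraries.

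MicroRNAs are short RNAs cut from hairpin precursors, and they pair with messenger RNAs mainly through the seed, bases 2 to 8 counted from the 5′ end of the mature strand. The hosts Ctdsp1, Ctdsp2 and Ctdspl encode small phosphatases that act on the C-terminal domain of RNA polymerase II and work with the repressor REST, which keeps neuronal genes silent in other cells. In zebrafish, miR-26b represses its own host, ctdsp2, as neurons form. In mammalian cells miR-26 is also known for repressing Ezh2, a regulator of chromatin. Host messenger RNAs are not part of small RNA libraries and have no values here.

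The mature sequences are shown because they decide which reads can be told apart. They come from RefSeq (GRCm38.p6, the same assembly as the mm10 of the files), are all on the plus strand, and have the seed in capitals.
miR-26b-5p, Mir26b, chr1:74394324-74394344: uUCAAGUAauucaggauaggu
miR-26a-5p, Mir26a-2, chr10:126995543-126995564: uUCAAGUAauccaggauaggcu
miR-26a-5p, Mir26a-1, chr9:119031811-119031832: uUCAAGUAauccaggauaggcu
miR-26b-3p, Mir26b, chr1:74394360-74394381: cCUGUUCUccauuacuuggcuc
miR-26a-2-3p, Mir26a-2, chr10:126995581-126995602: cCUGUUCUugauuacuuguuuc
miR-26a-1-3p, Mir26a-1, chr9:119031850-119031871: cCUAUUCUugguuacuugcacg

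All 3 loci carry the same 5p seed. Among the 1738 mature entries of the RefSeq table, only these 3 have it. The 5p arm, the strand usually kept for this family, has the same 22 bases in Mir26a-2 and in Mir26a-1. Mir26b differs from miR-26a-5p at 2 of 22 positions, C11U and C21U, with positions counted from 1 at the 5′ end, the base of miR-26a-5p first, and the Mir26b hairpin read on past the 21 bases of miR-26b-5p. The 3p arms differ at every pair of loci. miR-26a-1-3p and miR-26a-2-3p differ at 6 of 22 positions (A4G, G11A, C19U, A20U, C21U and G22C, the base of miR-26a-1-3p first). A4G lies in the 3p seed, so the 3p seeds of Mir26b and Mir26a-2 are identical and that of Mir26a-1 is not.

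The hairpins show how far the identity of the Mir26a copies runs. In Mir26a-2 and Mir26a-1 the capitals mark the longest run that these hairpins share, and in Mir26b they mark miR-26b-5p.
Mir26b, chr1:74394310-74394394: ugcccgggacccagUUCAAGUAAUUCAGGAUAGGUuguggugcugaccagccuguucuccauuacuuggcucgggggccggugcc
Mir26a-2, chr10:126995530-126995613: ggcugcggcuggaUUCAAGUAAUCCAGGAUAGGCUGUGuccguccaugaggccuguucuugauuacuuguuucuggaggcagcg
Mir26a-1, chr9:119031796-119031885: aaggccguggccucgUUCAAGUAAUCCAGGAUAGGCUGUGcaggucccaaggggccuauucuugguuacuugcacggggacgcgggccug

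The shared run of the Mir26a copies is 25 bases long. It starts with the first base of miR-26a-5p and goes on for 3 bases beyond its 3′ end. A read that begins at the annotated 5′ end therefore has to be 26 bases long to differ between the copies. The size range given in the labels is below 30, without a unit. Mir26b shares at most 11 bases in a row with Mir26a-1 and 10 with Mir26a-2. Of all GENCODE M21 hairpins, no other holds either arm of Mir26b or the 3p arm of a Mir26a copy, and the 5p arm of each Mir26a copy is found in the other copy alone. In these tables a read with several matching places is assigned to none of them, so reads within the shared run add to neither copy. The levels below are of reads that map to 1 place, and for Mir26a they are lower limits. The tables do not split a locus into its 5p and 3p arm.

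The 3 hosts lie on 3 chromosomes, and in each the hairpin lies on the strand of the host and in an intron of its principal transcript. Mir26b (ENSMUSG00000065468.1) lies in intron 4 of Ctdsp1, 2.80 kb from the start of the transcript, in an intron of 0.564 kb. Mir26a-2 (ENSMUSG00000065430.1) lies in intron 5 of Ctdsp2, 16.8 kb from the start, in an intron of 1.95 kb. Mir26a-1 (ENSMUSG00000065513.1) lies in intron 5 of Ctdspl, 105.3 kb from the start, in an intron of 3.28 kb. Ctdsp2 also has 2 shorter annotated transcripts that begin at 126995613, the last base of the Mir26a-2 hairpin.

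**Figure D1:**
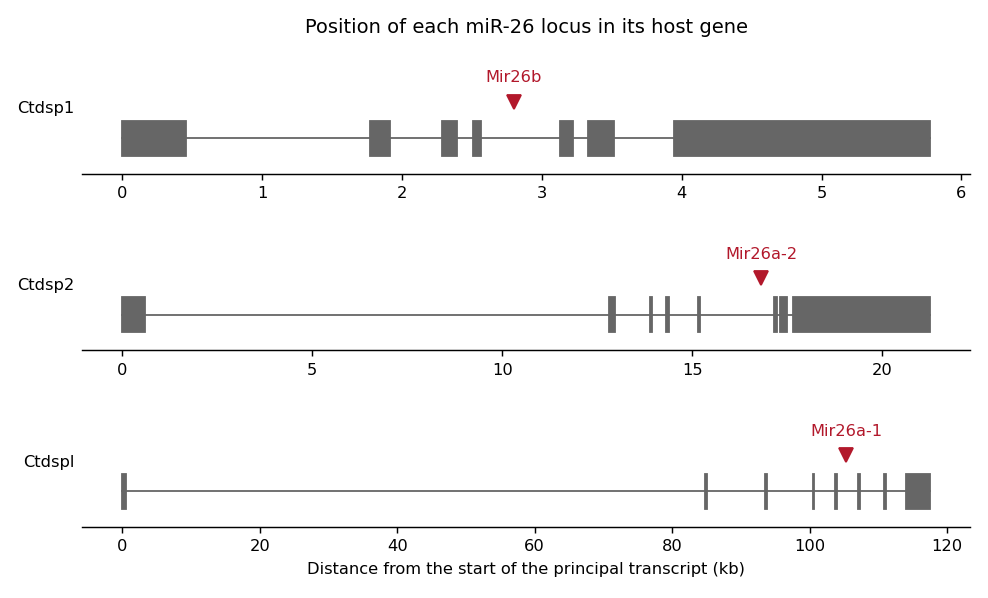
Exons (grey boxes) and introns (lines) of the principal GENCODE M21 transcript of each host gene, by distance from its start in kb, with a red mark at the miR-26 hairpin; each row has its own scale. Mir26b sits 2.80 kb from the start of Ctdsp1, Mir26a-2 16.8 kb from that of Ctdsp2, and Mir26a-1 105.3 kb from that of Ctdspl.

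The libraries held 2427066 gene-strand counts in pup 3 and 2742746 in pup 1. Reads that map to several places were 2596301 in pup 3 and 2810170 in pup 1, or 1.07 for each assigned count in pup 3 and 1.02 in pup 1. The neuron and forebrain list had 5 of 9 loci detected (at least 10 counts in both pups) and held 3.96% of the counts in pup 3 and 4.34% in pup 1, led by the neuronal Mir137. Mir9-1 has no row, and Mir9-2, Mir124a-2 and Mir124a-3 had under 10 counts in each pup. Blood vessel loci, 3 of 3 detected, held 3.94% in pup 3 and 3.50% in pup 1. Epithelium loci, 5 of 5 detected, held 0.932% in pup 3 and 0.368% in pup 1, and by the test given below all 5 were higher in pup 3, where 10.2% of all tested loci were. Oligodendrocyte loci, 3 of 3 detected, held 0.0550% in pup 3 and 0.0729% in pup 1. The white blood cell, red blood cell, liver, hindbrain and muscle loci held at most 0.0355% a list in either pup. Detected were 2 of 3 white blood cell loci (no row for Mir142) and 2 of 2 red blood cell loci. Of the liver, hindbrain and muscle loci, 1 of 1, 2 of 4 and 1 of 5 were detected (no row for Mir1a-2). Mir1a-1, Mir133a-1, Mir133a-2 and Mir196a-1 had no count. Reads that map to several places are missing from all these lists. A low or zero count at a locus with copies therefore does not show that its miRNA is absent. The part of the other cell types in the miR-26 values was not tested.

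Mir26b held nearly all assigned counts of the family and stood near the top of all loci. Mir26b had 20339 counts in pup 3 and 29704 in pup 1. These are 8380 CPM (counts scaled to a total of 1000000 gene-strand counts) in pup 3, with a 95% exact Clopper-Pearson interval of 8266 to 8496, and 10830 CPM in pup 1, with an interval of 10708 to 10953. The intervals do not overlap, so the pups differ by more than counting error. Over both pups Mir26b averaged 9605 ± 1732 CPM (SD, n = 2), which is 0.960% ± 0.173 of the counts and rank 19 of the 1973 rows. Intervals cover counting error only, since copies of 1 molecule made by PCR count as separate reads.

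Mir26a-2 was far lower in assigned counts, and Mir26a-1 lower again. Mir26a-2 had 107 counts in pup 3 and 115 in pup 1, or 44.1 CPM in pup 3 (interval 36.1 to 53.3) and 41.9 CPM in pup 1 (34.6 to 50.3). Its mean was 43.0 ± 1.53 CPM, at rank 244. Mir26a-1 had 27 counts in pup 3 and 37 in pup 1, or 11.1 CPM in pup 3 (7.33 to 16.2) and 13.5 CPM in pup 1 (9.50 to 18.6), with a mean of 12.3 ± 1.67 CPM at rank 290. The intervals of the pups overlap at both Mir26a loci. By assigned counts the order Mir26b, Mir26a-2, Mir26a-1 was the same in both pups. In neither pup do the intervals of any of the 3 loci overlap. Both Mir26a values are lower limits, so the order of the copies holds for assigned reads only. No locus had a count on the strand opposite to it. By the same exact interval, a locus without counts can reach 1.52 CPM in pup 3 and 1.345 CPM in pup 1.

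Within a library, loci share the same total, so their ratio needs no scaling. Mir26b stood 190-fold above Mir26a-2 in pup 3 (interval 157 to 232) and 258-fold in pup 1 (215 to 313). Against Mir26a-1 it stood 753-fold higher in pup 3 (518 to 1143) and 803-fold in pup 1 (582 to 1140). In assigned counts, Mir26a-2 exceeded Mir26a-1 by 3.96-fold in pup 3 (2.58 to 6.29) and 3.11-fold in pup 1 (2.13 to 4.63). Reads within the shared run are missing from both, so this fold does not order the copies by their RNA. Of all counts of the family, Mir26b held 99.3% in pup 3 (99.2 to 99.5%) and 99.5% in pup 1 (99.4 to 99.6%). Mir26a-2 held 0.523% in pup 3 (0.428 to 0.631%) and 0.385% in pup 1 (0.318 to 0.462%). Mir26a-1 held 0.132% in pup 3 (0.0869 to 0.192%) and 0.124% in pup 1 (0.0873 to 0.171%). These folds set a locus whose arms are in no other annotated hairpin against loci whose 5p arm is in 2 of them. Matches elsewhere in the genome were not searched. If Mir26b loses no reads this way, the folds are upper limits of the difference between miR-26b and miR-26a as to multiply mapped reads. Ligation and amplification favour some sequences and can shift the folds in either direction.

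**Figure D2:**
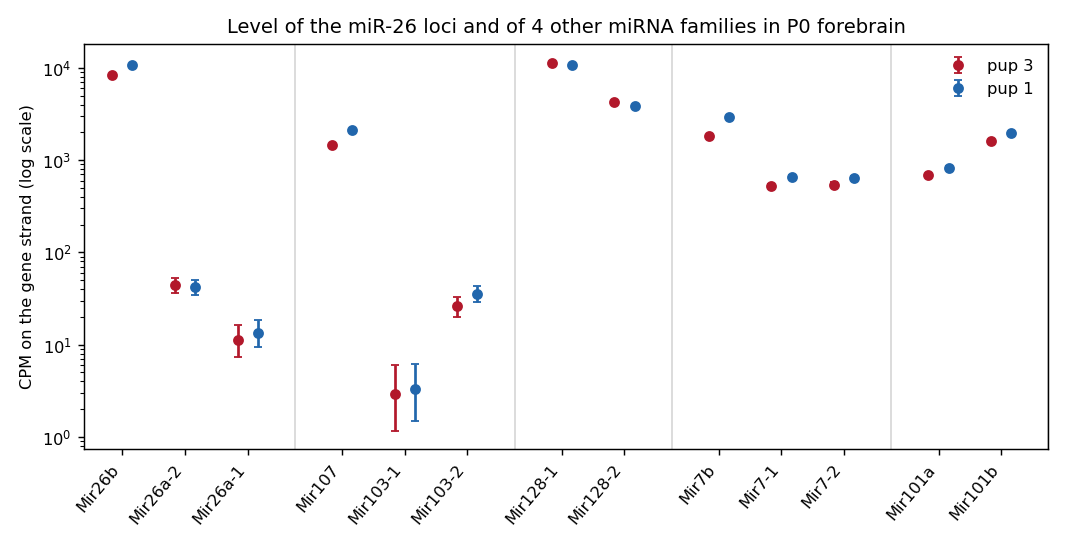
CPM of each locus on a log scale in pup 3 (red, left) and pup 1 (blue, right), with 95% exact intervals for counting error; vertical lines separate the families. Mir26b stands at 8380 and 10830 CPM, Mir26a-2 at 44.1 and 41.9, and Mir26a-1 at 11.1 and 13.5; in the miR-103/107 family the single-copy Mir107 likewise stands far above the Mir103 copies, while the Mir128 copies are both high.

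The loci next to Mir26b in level could not be ordered against it. Above it stood Mir17, of a cluster high in dividing cells, with 10209 ± 294 CPM, and Mir22, with 9946 ± 482 CPM. Below it stood Mir342 with 9558 ± 989 CPM and Mir23b with 9328 ± 441 CPM. The range of each over the 2 pups overlapped that of Mir26b. Around Mir26a-2 stood Mir155 (45.3 ± 8.13 CPM) and the red blood cell Mir451a (44.1 ± 9.87 CPM) above, and Mir224 (41.2 ± 1.10 CPM) and Mir152 (40.1 ± 7.75 CPM) below. Around Mir26a-1 stood Mir669e (12.7 ± 6.84 CPM), Mir344c (12.4 ± 0.0253 CPM), Mir7224 (12.0 ± 3.49 CPM) and Mir344b (11.7 ± 7.20 CPM). All of these overlapped their miR-26 neighbour in range.

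Likeness of pattern was measured as the Euclidean distance of log2(CPM + 1) over the 2 libraries, which at n = 2 mostly reads the level. Nearest to Mir26b were Mir342 (0.112), Mir23b (0.198) and Mir22 (0.210). Nearest to Mir26a-2 were Mir224 (0.0839), Mir6944 (0.166) and Mir30c-1 (0.214), and nearest to Mir26a-1 were Mir344c (0.180), Mir3057 (0.269) and Mir344f (0.315).

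**Figure D3:**
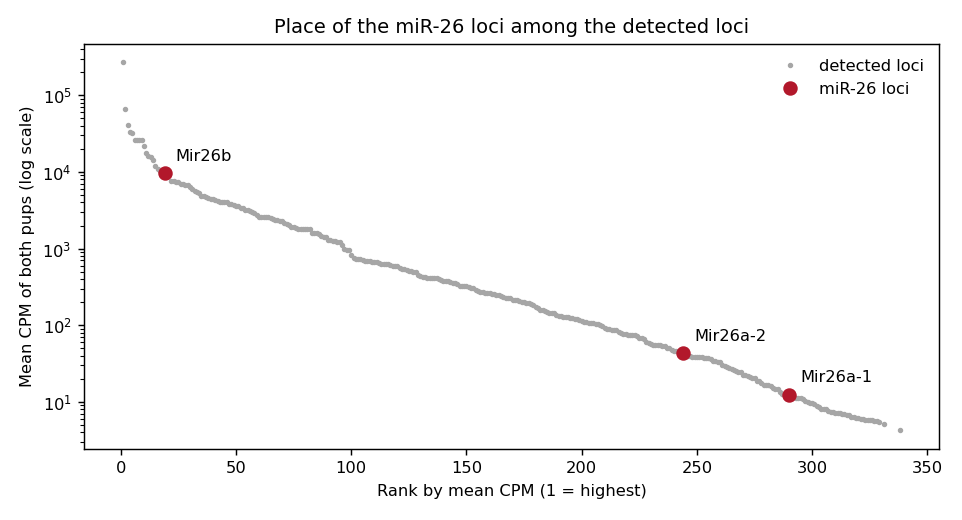
Mean CPM of both pups on a log scale for the 331 detected loci, by rank among all rows, with the miR-26 loci in red. Mir26b stands at rank 19, near the top, and Mir26a-2 (rank 244) and Mir26a-1 (rank 290) stand in the lower part of the curve.

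To place the Mir26a loci, copies with an identical arm were looked at among the loci at which a RefSeq mature sequence could be placed. Loci at which none could be placed were not covered, Mir124a-1 among them. Of 916 loci with a mature sequence in the table, 56 have 2 listed arms of which 1 is also found in another hairpin, as in both Mir26a loci. Of these 56 loci, 34 (60.7%) were detected, with a median of 298 CPM among the detected, and 9 of the 34 lay below Mir26a-2. Of 509 loci with 2 arms found nowhere else, as in Mir26b, 222 (43.6%) were detected, and 15 stood above Mir26b. Of 17 loci with both arms found elsewhere, 3 (17.6%) were detected. The remaining loci of the 916 do not have 2 listed arms. These are descriptions of the loci, with no test.

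Among 17 pairs of detected loci with an identical arm, the Mir26a pair had the lowest summed level. Pairs in which a copy has no row could not be summed. Pairs with a copy under 10 counts in either pup were left out. Some of those had lower sums (33.7 CPM for Mir103-2 and Mir103-1) and some higher (537 CPM for Mir9-3 and Mir9-2). The sum of the Mir26a pair was 55.3 CPM, against a median of 1188 CPM over the 17 pairs and 15135 CPM for Mir128-1 and Mir128-2. Its shared run of 25 bases was longer than that of 11 pairs and shorter than that of 5, in a range of 22 to 28. The shortest read that tells the copies apart, counted from the 5′ end of the arm, was longer in 2 other pairs, at 29 bases for Mir30c-2 and Mir30c-1 (90.4 CPM summed) and 28 for Mir181a-1 and Mir181a-2 (8093 CPM). Both of these pairs share a run of 28 bases, and their levels lay far apart. Whether the length of the run bears on the level was not tested. By assigned reads alone, the copies within a pair differed by 2.71-fold in the median and by 3.49-fold in the Mir26a pair.

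**Figure D4:**
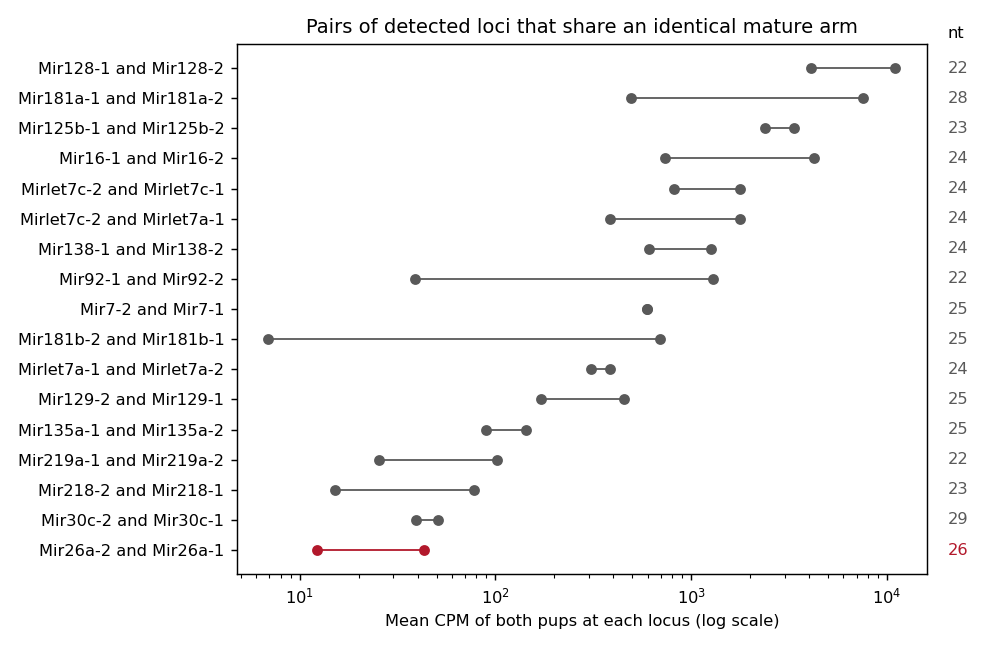
Mean CPM of both pups, on a log scale, at each locus of the 17 pairs of detected loci with an identical mature arm, joined by a line, with the Mir26a pair in red; the number at the right is the shortest read, in nt from the 5′ end of the arm, that differs between the copies. The Mir26a pair stands at the bottom with a sum of 55.3 CPM and 26 nt.

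The miR-103/107 family, in introns of the pantothenate kinase genes, also has a member with no copy among the annotated hairpins and a member with 2 copies, here shown with the seed in capitals (RefSeq, GRCm38.p6).
miR-107-3p, Mir107, chr19:34820700-34820722, minus strand: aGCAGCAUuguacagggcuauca
miR-103-3p, Mir103-2, chr2:131288103-131288125, plus strand: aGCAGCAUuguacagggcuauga

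miR-107-3p and miR-103-3p differ only at the base before the last, whereas Mir26b and miR-26a-5p already differ at C11U. A read from the 5′ end that stops short of that base matches Mir107 and the Mir103 copies alike. The counts of Mir107 are therefore lower limits too. Mir107 had 3553 counts in pup 3 and 5772 in pup 1. Mir103-2 had 63 in pup 3 and 97 in pup 1, and Mir103-1 had 7 in pup 3 and 9 in pup 1. Mir26b stood 174-fold ± 30.9 above the sum of the Mir26a copies (n = 2), and Mir107 stood 52.6-fold ± 2.61 above the sum of the Mir103 copies. In the miR-7 family, Mir7b (2391 ± 801 CPM) stood 1.99-fold ± 0.387 above the sum of Mir7-2 and Mir7-1. A gap between a member with no copy and the copies was therefore present in each of these families, and its size differed widely between them; the folds were not tested against each other.

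The miR-128 copies were both high although miR-128-3p is identical in them. Mir128-1 had 27516 counts in pup 3 and 29525 in pup 1, and Mir128-2 had 10459 in pup 3 and 10582 in pup 1. Their hairpins are shown with the shared run in capitals, for contrast with the Mir26a copies (RefSeq, GRCm38.p6).
Mir128-1, chr1:128202361-128202430, plus strand: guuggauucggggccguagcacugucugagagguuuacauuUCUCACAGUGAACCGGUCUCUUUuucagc
Mir128-2, chr9:112118636-112118711, minus strand: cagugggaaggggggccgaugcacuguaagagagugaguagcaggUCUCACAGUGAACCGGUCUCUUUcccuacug

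The run of the Mir26a copies goes on for 3 bases beyond the arm. That of the Mir128 copies is 23 bases long and ends with the last base of miR-128-3p, so that a read 1 base longer than the arm differs between the copies. Whether this is behind the difference in level was not tested. Mir101a and Mir101b, whose mature sequences are not identical, had 755 ± 103 and 1793 ± 243 CPM.

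Between the libraries, Mir26b was lower in pup 3 than in pup 1, and the Mir26a loci did not pass the test. Each side is 1 pup, so the test compares these libraries and not conditions, and fewer cells of a type cannot be told apart from less of the RNA per cell. Mir26b had a log2 ratio of pup 3 over pup 1 of −0.37 (CPM + 1; interval −0.40 to −0.34, computed without the added 1), with p = 2.27e-177 by a two-sided Fisher's exact test with Benjamini-Hochberg adjustment over the 400 loci of at least 10 summed counts. Lower calls made up 46.2% of all tested loci, and calls in either direction 56.5%. The median of all tested loci was −0.31, so Mir26b lay only 0.06 below it. With TMM-adjusted library sizes the log2 ratio of Mir26b was −0.12 and with DESeq2 size factors −0.06, and it still passed as lower (exact binomial test, adjusted p = 5.03e-19 and 5.55e-05), where lower calls were 26% and 20.8% of the tested loci and calls in either direction 46.5% and 45.2%.

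Mir26a-2 had a log2 ratio of 0.07 (interval −0.32 to 0.46; adjusted Fisher's exact p = 0.828), which is 0.38 more than the median of the tested loci. Mir26a-1 had −0.26 (interval −1.05 to 0.48; adjusted Fisher's exact p = 0.556). The intervals of both Mir26a loci hold 0 as well as −0.31, the median of the tested loci. The interval of Mir26a-1 also holds the −0.37 of Mir26b, so a difference of that size was not detectable there at 27 to 37 counts per library. That of Mir26a-2 ends at −0.32, short of the value of Mir26b; whether the loci differ in ratio was not tested.

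**Figure D5:**
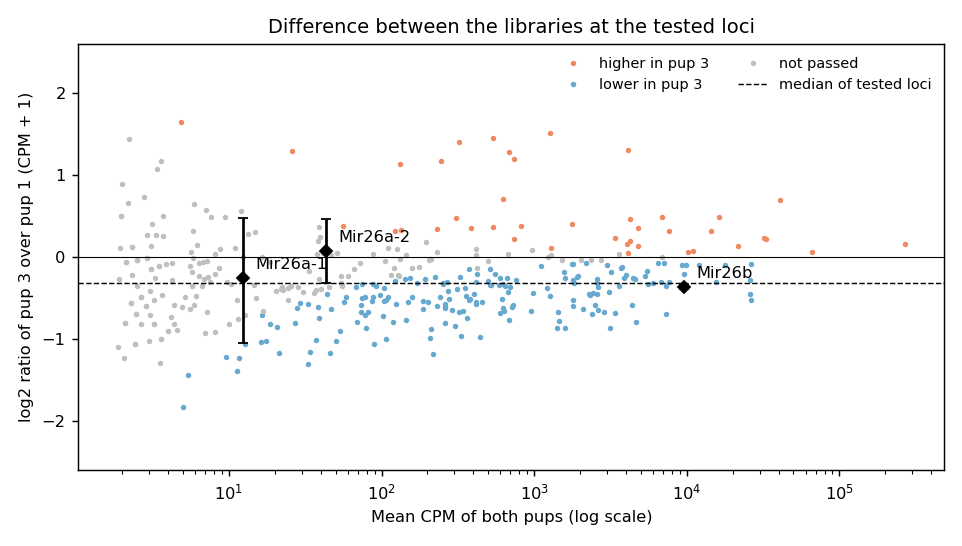
Log2 ratio of pup 3 over pup 1 (CPM + 1) against mean CPM on a log scale for the 400 tested loci, coloured by call, with the miR-26 loci as black diamonds with 95% exact intervals; the dashed line is the median of −0.31. Mir26b lies close to the dashed line, and the intervals of both Mir26a loci cross it.

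The other families of this comparison gave calls in both directions. Mir107 had a log2 ratio of −0.52 (adjusted Fisher's exact p = 1.40e-65) and was lower with size factors too, and Mir103-2 (−0.43) and Mir103-1 (−0.14) did not pass. Mir128-1 (0.07) and Mir128-2 (0.16) passed as higher with totals and with size factors. Mir7b passed as lower on both scales (−0.70 with totals). Mir7-1 (−0.34), Mir7-2 (−0.25), Mir101a (−0.28) and Mir101b (−0.28) passed as lower with totals and did not pass with size factors.

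Several neuronal miRNAs are repressed by REST, with which the Ctdsp hosts act, and 7 of the 8 listed have a row. With library totals 1 of 5 tested was higher in pup 3, 2 were lower and 2 did not pass, against 10.2% higher and 46.2% lower of all tested loci. Their median log2 ratio was −0.23, beside −0.31 for all tested loci. With size factors 2 were higher and none lower, against 24.5% higher and 20.8% lower of all tested loci. Mir9-3 was higher on both scales (1466 counts in pup 3 and 1281 in pup 1). Mir132, induced by neuronal activity, had 4310 counts in pup 3 and 5711 in pup 1 and was lower with totals (−0.23) but higher with size factors (0.08), and Mir212, of the same cluster, had 221 in pup 3 and 324 in pup 1 and was lower with totals alone. Both arms of Mir9-2 and Mir9-3 are found in other hairpins. Mir124a-1, the highest of the miR-124 loci, had 21 counts in pup 3 and 15 in pup 1. Mir26b alone held 0.838% of the counts in pup 3 and 1.08% in pup 1, against 0.248% in pup 3 and 0.268% in pup 1 for the whole list, though the multiply mapped reads of its copied loci are missing.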

How the data were processed

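The authors deposited 1 table of unnormalized read counts per library, made on assembly mm10 with annotation M4 per the accompanying text. No aligner or counter was given in the sources used here. The tables have 3 count columns, for both strands, the gene strand and the opposite strand, as read from their values, and the gene strand was used. The 4 rows that name no gene were left out of library sizes: of 5883027 reads in pup 3 and 6657203 in pup 1, 44.1% and 42.2% mapped to several places, 12.3% and 13.4% did not map, 2.27% and 3.23% lay at no miRNA, and 0 were ambiguous.

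Names and hosts came from GENCODE M21 (GRCm38, the assembly of mm10), which matched 1894 of 1973 rows; the other 79 had at most 1 count. Sequences came from RefSeq. Members and lists were chosen with earlier results of these data known. Besides the 3 loci and the listed loci, the text names by rule the 2 loci above and below each in level and the 3 nearest in pattern; Mir30c-2 and the Mir181a loci were chosen after their values were seen.

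With 1 group edgeR has no contrast, so Fisher's exact test was used (Benjamini-Hochberg, 0.05). It was checked on simulated counts with Poisson noise only. Of loci changed by 1.5-fold 73.1% were called, by 2-fold 86.6%, by 4-fold 98.5%, and of 208 unchanged loci 3.37%. These rates cover counting error and not the spread between animals. The libraries were not copies of each other (chi-square per degree of freedom of 209). Tools were scipy 1.17.1, numpy 2.4.6 and pandas 2.3.3 in Python 3.11.15, figures came from matplotlib 3.10.9, and edgeR 4.0.16 (TMM) and DESeq2 1.42.0 (size factors) ran in R 4.3.3.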

Additional observations from a re-analysis of the deposited data

How the results depend on the processing

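With totals that leave out the most abundant locus, the levels were 13118 CPM (Mir26b), 58.9 CPM (Mir26a-2) and 16.8 CPM (Mir26a-1), and scaled to all reads of the library they were 3960, 17.7 and 5.07. Leaving out a replicate gave 8380 to 10830 CPM, 41.9 to 44.1 CPM and 11.1 to 13.5 CPM, and folds of Mir26b of 190 to 258 over Mir26a-2 and 753 to 803 over Mir26a-1. The log2 ratio of Mir26a-1, which passed no test, turned to 0.033 with DESeq2 size factors (adjusted exact binomial p = 1). With a threshold of 1 count in both pups, 78.6% of loci with 1 arm elsewhere and 68.4% of those with neither were detected, and with 100 counts 44.6% and 32.2%. The count of called loci was 181 to 235 over the alternatives, against 226, with 41 higher and 185 lower by totals but 82 and 104 with TMM and 98 and 83 with size factors. Of all alternative values, 46 counted as the same as the main value, 10 moved and 1, the ratio of Mir26a-1 above, reversed. Same meant within the SD for levels and folds, and equal sign and side of the threshold for ratios. For the number of called loci it meant within a fixed fold of the main number. For the detected share it meant inside the exact interval of the main share. Part of the 46 could not have done otherwise. Leaving out a replicate gives the value of the other pup, which always lies within the SD of both pups. Another pseudocount keeps the sign of the ratio and the p-value. Counting both strands together leaves the folds as they were, because no miR-26 locus had opposite-strand counts. The number 46 is therefore no measure of robustness. No paired analysis was possible because there is 1 group. Depth limits the Mir26a ratios, with 27 to 115 counts per library. Ligation and amplification favour some sequences, so levels of different loci are less sure than 1 locus in both pups.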
